A study of Saccharomyces cerevisiae with 40 samples.

Results

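Chromosome III of budding yeast, Saccharomyces cerevisiae, carries the mating-type locus on its right arm and one of the silent mating-type cassettes on its left arm. The genes described here are those of the left arm, whose systematic names begin with YCL. A probe set was present for 59 of the 67 YCL loci of the gene table. Of these, 1 was not above background on at least 2 arrays, and 6 genes were set aside by name (LEU2, HIS4, ILV6, GLK1, KAR4 and HMLALPHA1). The remaining 52 genes, of 5449 genes on the array, were otherwise chosen by position and background alone. In all, 46 of the 52 were above background on all 40 arrays, and the probe sets of GEX1, VBA3 and YCL068C can also bind transcripts of related genes.

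A cell with an extra or a missing chromosome has every gene of that chromosome at an altered dose, and transcript levels usually move with it. Where a gene's product feeds back on its own synthesis, or its protein is held in a complex, the level of transcript or protein can move less than the gene copies do. The left arm is a mixed set of neighbours: it codes for factors that build ribosomes and bind RNA, folding and sorting proteins of the secretory pathway, mitochondrial and redox enzymes, cell-cycle and bud-site proteins, mating factors and amino acid transporters.

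Polyadenylated transcripts were measured on one-colour Affymetrix arrays in 16 groups after 18 generations without stress. The diploid groups were an unevolved monosomic clone with 1 copy of chromosome III and an unevolved trisomic clone with 3 copies (1 array each), populations after 450 generations of abrupt heat at 39 °C (4 arrays), of heat raised gradually from 30 °C (4) and of growth at 30 °C (2), a line named H2 taken from abrupt heat and returned to 30 °C for 600 generations (4), H2 and the trisomic clone each after 1000 generations of heat on minimal medium (2 each), the wild-type ancestor on minimal medium (1) and the wild-type ancestor (2). The haploid and spore groups were 8 spores of a line evolved at 39 °C and 1 disomic and 1 euploid spore of a line evolved at pH 8.6. They also held populations after 150 (1) and 750 generations (4) at that pH, and the wild-type haploid ancestor (2). Each clone is 1 isolate, the evolved groups are population samples, and whether numbered arrays come from separate cultures is not stated, so the p-values below measure the spread between arrays, which may be technical. The labels name the copies of chromosome III for the clones and call the minimal-medium line of the trisomic clone trisomic, without saying whether that still held after evolution. The promoters of the genes were not analysed here, as no genome was used.

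Arrays fell into 9 sets that share identical values and therefore appear to have been normalized together. Levels were compared within these sets, and all levels and differences below are on the authors' log2 scale. A background level was set on each array from probe sets of another species, at 4.23 to 5.36. Over 8 genes that are transcribed in haploid cells and repressed in diploids, the mean level was 5.86 to 7.02 on the 23 diploid arrays. Among the 8 spores of the 39 °C line, spores 1, 5 and 7 had 6.83, 6.96 and 6.75 on this measure, within the diploid range although of another normalization set, while the other 5 spores had 10.5 to 10.8. The labels call all 8 arrays spores and name no ploidy or mating type, and what sets these 3 apart was not tested. The number of left-arm genes with a high level is also given without these 3 spores. The plot of arm levels shows the left and right arms of chromosome III together on every array.

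**Figure D1:**
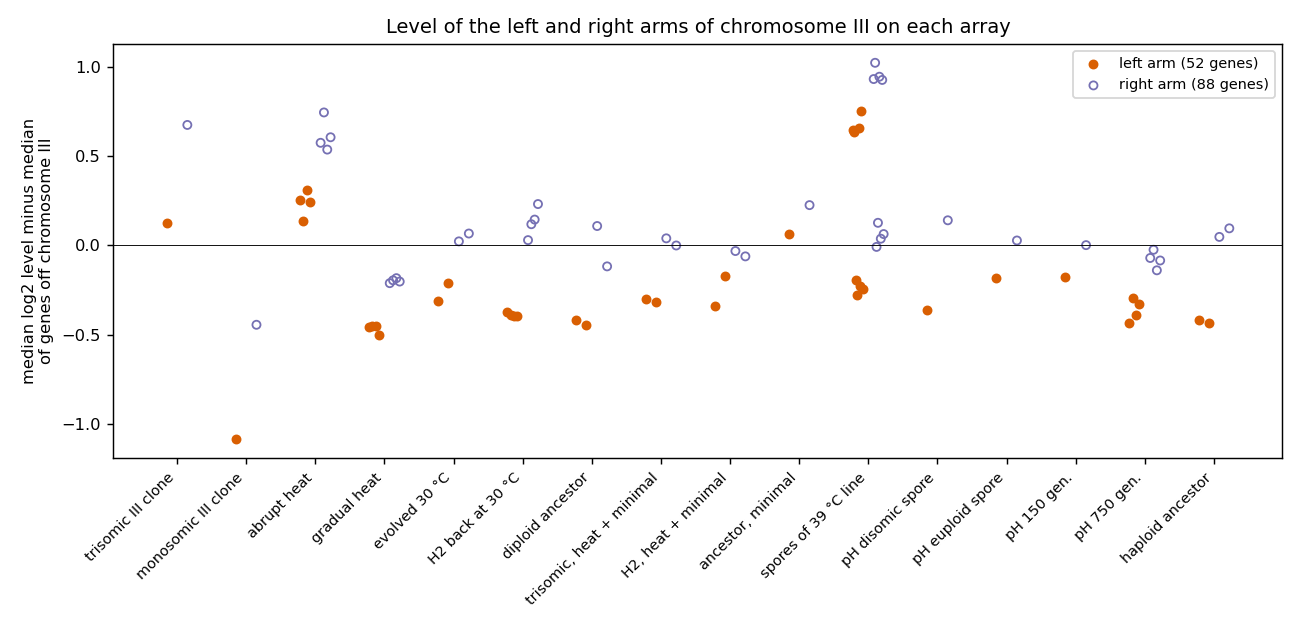
Median log2 level of the 52 left-arm genes (filled) and the 88 right-arm genes (open) minus the median of genes off chromosome III, 1 point per array and arm, by group. Against the 2 ancestor arrays at −0.44 and −0.42 for the left arm, the trisomic clone stands at 0.12, the monosomic clone at −1.08 and the abrupt-heat arrays at 0.14 to 0.31, and the 8 spores lie in 2 bands. The measure also differs between media: the ancestor on minimal medium stands at 0.07 with 2 labelled copies. The descent of the trisomic clone on that medium stands at −0.30 and −0.32, although the median change per gene between these groups was 0.04.

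With 1, 2 and 3 copies of chromosome III, the left arm followed the number of copies but by less than proportion. The clones and ancestor array 1 belong to 1 normalization set. The monosomic clone lay below ancestor array 1 in 51 of 51 tested genes, with a median difference of −0.53, a level of 0.692 of the ancestor's where 0.5 would be proportional. The trisomic clone lay above it in 50 of 51, with a median difference of 0.49, a ratio of 1.4 where 1.5 would be proportional. The loss of a copy thus reached 53.2% of the proportional change of −1, and the gain reached 82.9% of the proportional 0.58. In 46 of 51 genes the gain was the larger share of its proportional change. Both steps subtract the same single array, so a deviation of ancestor array 1 that enlarges the gain shrinks the loss. The genes are therefore not separate readings of this difference. The right arm had medians of −0.51 and 0.52 for the same steps. How far the array compresses ratios was not tested, and it bears on both steps and both arms.

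**Figure D2:**
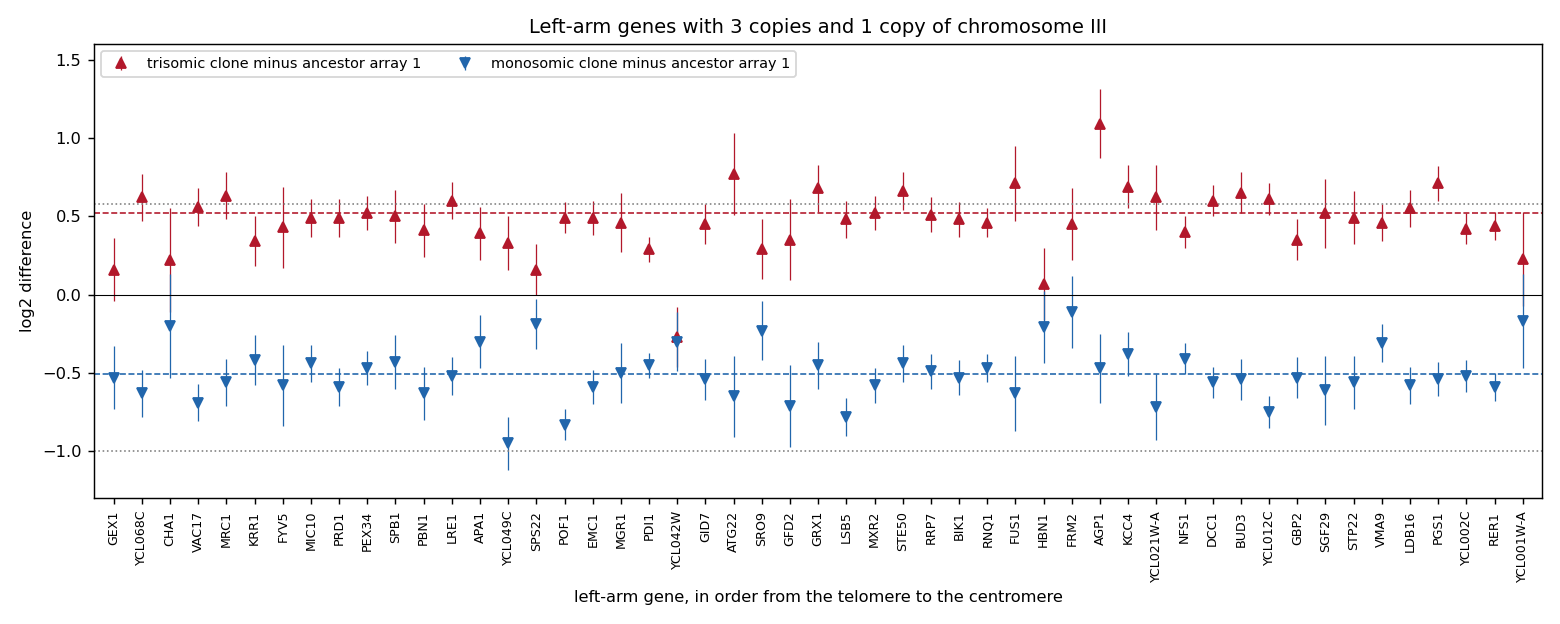
Log2 difference of the trisomic clone (red) and the monosomic clone (blue) from ancestor array 1 for 51 left-arm genes in order from telomere to centromere, with bars for the SE. Dotted lines mark proportional changes of 0.58 and −1 and dashed lines the right-arm medians of 0.52 and −0.51, and most genes lie close to the dashed lines.

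Taken singly, the steps passed the test in fewer genes. In the trisomic clone, limma with Benjamini-Hochberg adjustment over 5335 genes called 9 of 51 left-arm genes higher, against 0.394% of all genes. They were STE50, an adaptor of the pheromone kinase cascade, RNQ1, a prion protein, AGP1, a broad amino acid permease, KCC4, a septin-associated kinase, DCC1 of sister chromatid cohesion, BUD3 of bud-site selection, YCL012C, PGS1 of cardiolipin synthesis and RER1, a Golgi receptor that returns proteins to the endoplasmic reticulum. In the monosomic clone it called 16 of 51 lower, against 0.75% of all genes, and 0 higher (0.075% of all genes). A gain at or beyond 0.58 was measured in 14 genes, and a loss at or beyond −1 in 0 of 51. The upper quartile of the gain was 0.60 on the left arm and 0.64 on the right.

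The 3 copy numbers were then summarised as a dosage slope, the rise in log2 level per rise in log2 copies, which is 1 where the level is proportional to the copies and 0 where it does not move. The median slope was 0.64 over 51 left-arm genes (quartiles 0.52 and 0.72), beside 0.63 over 88 right-arm genes and 0.00 over genes off chromosome III. limma called the slope above 0 in 42 of 51 left-arm genes (82.4%), where 3.22% of all genes and 1.02% of genes off chromosome III were called higher and 0.45% of all genes were called lower. On the right arm it called 74 of 88 (84.1%). Without the genes of shared probe sets the count was 41 of 49. Each clone has 1 array, so the error comes from the spread of the replicated diploid groups, with 9 residual degrees of freedom. These groups differ in spread. Pairs of gradual-heat arrays differed with an SD over genes of 0.0555 to 0.0927, against 0.178 to 0.242 for H2 at 30 °C. How far the close gradual-heat arrays lower the error of the diploid comparisons was not tested. Without the set term 0 of the slopes were called and with all 40 arrays in 1 fit, whose error includes the spread of the 8 spores, 1 of 52 was, with a median of 0.64 in both. Over 2 and 3 copies alone 9 slopes were called with a median of 0.83, and over 1 and 2 copies alone 16 with a median of 0.53. No share of all genes is given for these counts or for the fit of all 40 arrays.

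For the shares of all genes in this paragraph, genes on chromosome III were set against the stated slope and genes off it against 0. Set against proportion, 28 of 51 left-arm genes had a slope called below 1 and 0 above it. By that rule 1.76% of all genes were called below the slope they were set against and 0.769% above it. The right arm had 39 of 88 below. By 95% intervals, 45 slopes lay below 1 and 6 included it: those of AGP1, ATG22, YCL021W-A, FUS1, YCL049C and GFD2. Set against the right-arm median of 0.63, the slopes of 1 left-arm gene were called lower and 0 higher, where 0.412% and 0.469% of all genes were called. The right arm itself had 5 of 88 lower and 0 higher. On the left arm 10 genes (19.6%) had an unadjusted p under 0.05, against 10.8% of all genes. Array weights called 7 higher and 12 lower, but also 20.7% of all genes, and the set as a random term called 2 lower and 1.41% of all genes. The plot of sorted slopes shows a continuous spread with no break between followers and the rest.

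**Figure D3:**
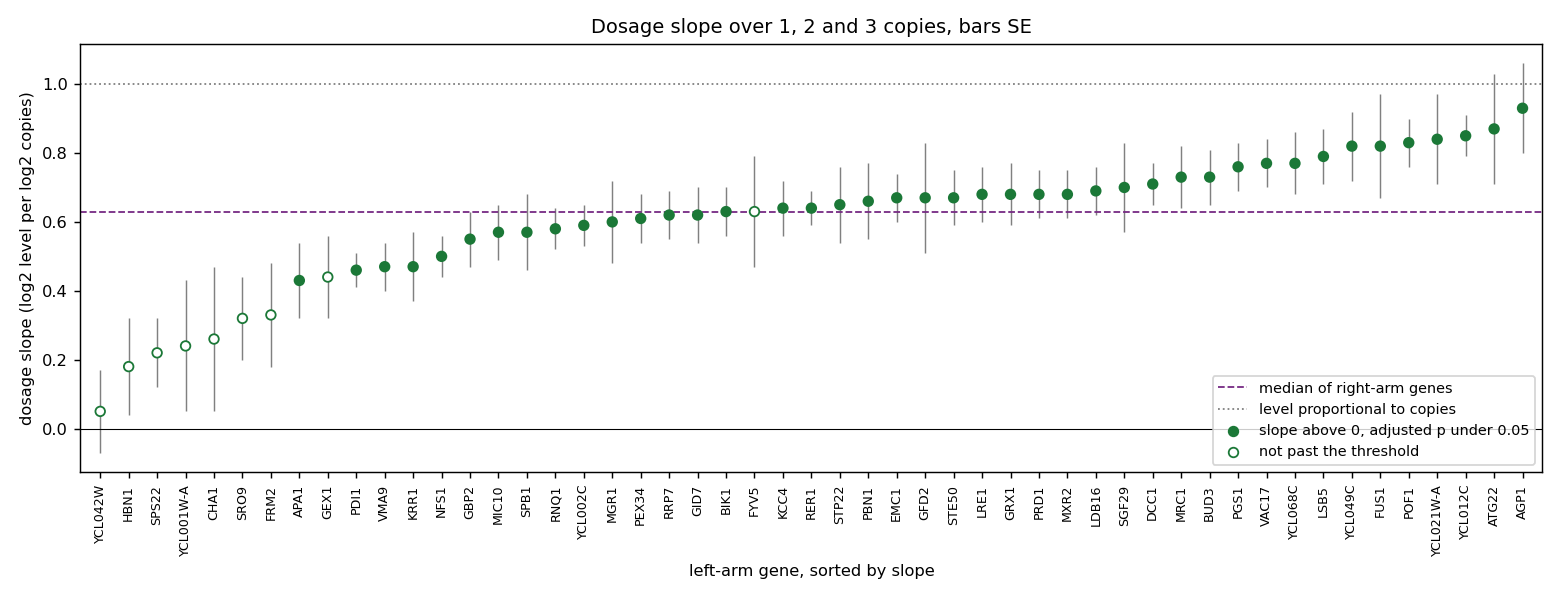
Dosage slope over 1, 2 and 3 copies for 51 left-arm genes, sorted, with bars for the SE. Filled points passed an adjusted p of 0.05 against 0, and slopes run from 0.05 in YCL042W to 0.93 in AGP1 around the right-arm median of 0.63.

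The steepest genes came nearest to proportion. AGP1 had a level of 9.17 with 1 copy, 9.64 with 2 and 10.73 with 3. Its gain of 1.09 ± 0.22 (SE) was 188% of the proportional step and its loss of −0.47 ± 0.22 was 47.0%, for a slope of 0.93 ± 0.13 (adjusted p = 7.0e-04). The permease therefore stood high in the trisomic clone and close to the other genes in the monosomic one.

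ATG22, which exports amino acids from the vacuole, had levels of 7.94, 8.60 and 9.36 with 1, 2 and 3 copies and a slope of 0.87 ± 0.16. POF1, a nicotinamide mononucleotide adenylyltransferase of NAD synthesis, had 8.22, 9.05 and 9.54, with a loss of −0.83 ± 0.10 (adjusted p = 0.00324) and a slope of 0.83 ± 0.07. Both genes were lower with 1 copy and higher with 3 than with 2. The uncharacterized YCL012C had 8.96, 9.71 and 10.33 and a slope of 0.85 ± 0.06, the smallest error among the 6 steepest genes (adjusted p = 6.5e-06). YCL021W-A, also uncharacterized, had 5.09, 5.81 and 6.44 and a slope of 0.84 ± 0.13. YCL049C had 7.70, 8.65 and 8.98, so its loss of −0.95 ± 0.17 came close to the proportional −1 (adjusted p = 0.0198) while its gain of 0.33 ± 0.17 did not pass (adjusted p = 1.00).

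The flattest genes above background with all 3 copy numbers were HBN1, YCL001W-A, CHA1, SRO9, FRM2 and APA1. HBN1, a nitroreductase-like protein, had levels of 7.44, 7.66 and 7.72 with 1, 2 and 3 copies and a slope of 0.18 ± 0.14 (adjusted p = 0.720). FRM2, its neighbour and relative, had 5.62, 5.73 and 6.18 and a slope of 0.33 ± 0.15 (adjusted p = 0.365). Neither slope was called above 0, and neither was called below the right-arm median (adjusted p = 0.207 for HBN1 and 0.483 for FRM2). The low slope of FRM2 rests on the monosomic clone: its loss was −0.11, while its gain of 0.45 was 77.6% of the proportional step, close to the arm median of 0.49. Its slope was 0.77 without the monosomic clone and 0.11 without the trisomic clone, neither of them called above 0.

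CHA1, the serine and threonine deaminase that is induced by those amino acids, had 11.81, 12.01 and 12.23 and a slope of 0.26 ± 0.21, with an interval from −0.19 to 0.71. SRO9, an RNA-binding protein of the cytoplasm, had 11.93, 12.16 and 12.45 and a slope of 0.32 ± 0.12 (adjusted p = 0.248). Both had their lowest level with 1 copy and their highest with 3. APA1, a phosphorylase that breaks down diadenosine tetraphosphate, had 11.54, 11.84 and 12.23. Its slope of 0.43 ± 0.11 was called above 0 (adjusted p = 0.0457) and below 1 (adjusted p = 0.0105). YCL001W-A had 4.73, 4.90 and 5.13, each close to background, and a slope of 0.24 ± 0.19.

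A low slope with a small error was seen in PDI1, the protein disulfide isomerase of the endoplasmic reticulum. It had levels of 12.64, 13.09 and 13.38 with 1, 2 and 3 copies. Its slope of 0.46 ± 0.05 was called above 0 (adjusted p = 7.7e-05) and below 1 (adjusted p = 4.9e-05), and its difference of −0.17 from the right arm did not pass (adjusted p = 0.179). Slopes closest to the right arm were those of BIK1, a microtubule plus-end protein, at 0.63 ± 0.07, of FYV5 at 0.63 ± 0.16, of KCC4 at 0.64 ± 0.08 and of RER1 at 0.64 ± 0.05. Levels of RER1 were 11.06, 11.65 and 12.09 and those of BIK1 7.91, 8.44 and 8.93. KCC4 had 7.59, 7.97 and 8.66, and FYV5 had 5.78, 6.36 and 6.78. All 4 had their lowest level with 1 copy and their highest with 3, and the slope of FYV5 missed the threshold (adjusted p = 0.0539).

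Genes near background have only bounds. YCL042W was the 1 gene called below the right arm (adjusted p = 0.0404), with 4.15, 4.45 and 4.18 for 1, 2 and 3 copies, but it was below background on all 3 arrays, so its slope of 0.05 ± 0.12 says nothing of its dosage. SPS22, a spore-wall gene, had 4.43, 4.62 and 4.78 and exceeded background only with 3 copies. FUS1, a membrane protein of cell fusion in mating, had 4.54, 5.17 and 5.88 and was below background with 1 copy, so it was at least 2.26-fold higher in the trisomic than in the monosomic clone (slope adjusted p = 0.00594). Grouped by the mean level over all arrays, which also depends on the probes, genes under 6 had a median slope of 0.23 on the left arm (4 genes) and 0.22 on the right (5 genes). It was 0.77 from 6 to 8 (5 genes), 0.70 from 8 to 10 (20 genes), 0.63 from 10 to 12 (14 genes) and 0.46 above 12 (8 genes). On the right arm these medians were 0.70, 0.74, 0.60 and 0.18. Dim and very bright probe sets thus had lower slopes on both arms, and the part of the array's range in this was not tested. By position along the arm, the median slopes were 0.63, 0.63 and 0.65 over 17 genes each from the telomere, the middle and the centromere side.

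By role, slopes were called above 0 in all 10 genes of the secretory pathway and vacuole (median 0.66), from PDI1 at 0.46 and VMA9, a subunit of the proton pump of the vacuole, at 0.47 to LSB5 of endocytosis at 0.79 and ATG22. All 5 genes of the cell cycle, bud and chromosomes were called (median 0.71), from BIK1 to MRC1 of the replication checkpoint and BUD3, both at 0.73. Of the 7 measured genes of RNA and ribosome biogenesis 6 were called (median 0.57), among them KRR1 at 0.47, SPB1 at 0.57 and RRP7 at 0.62, which build the small and large subunits, and SRO9 was the exception. These counts stand beside a median of 0.64 and 42 of 51 for the arm as a whole.

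In mitochondria, peroxisome and redox 9 of 11 were called (median 0.60), including NFS1, the cysteine desulfurase of iron-sulfur clusters, at 0.50 and PGS1 at 0.76, and the exceptions were HBN1 and FRM2. In signalling, mating, prion and sporulation 6 of 7 were called (median 0.67), SPS22 being the exception. In transport and amino acid use 1 of 3 was called (median 0.44), AGP1, while CHA1 and the glutathione exchanger GEX1 (0.44 ± 0.12, adjusted p = 0.0732) were not. VBA3, a vacuolar permease for basic amino acids, was above background on 4 of 40 arrays and was not tested. Subunits of stable complexes, among them VMA9, KRR1, MIC10 of the inner-membrane MICOS complex (0.57), EMC1 (0.67) and SGF29 of the SAGA complex (0.70), were called in 10 of 10, with a median of 0.64 and a range of 0.47 to 0.71. The median of this list equals that of the arm.

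The spores of the 39 °C line give a second reading of the arm. Their labels give no copy number, so each spore is set against haploid ancestor array 2, of the same normalization set. The left-arm median was 0.74 in spore 1, 0.79 in spore 2, 0.05 in spore 3, −0.01 in spore 4, 0.72 in spore 5, −0.02 in spore 6, 0.72 in spore 7 and 0.00 in spore 8. The right-arm medians for spores 1 to 8 were 0.80, 0.79, 0.02, 0.01, 0.76, 0.00, 0.77 and 0.00. On both arms spores 1, 2, 5 and 7 were high, with a gap of 0.74 to the other 4 on the right arm. A step of 1 would be proportional between 1 copy and 2.

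In 43 of 52 left-arm genes the widest gap among the 8 spores had spores 1, 2, 5 and 7 above it, as it had in 69 of 88 right-arm genes. Over all 5352 genes of the haploid fit this was so in 3.06%, and off chromosome III in 50 genes, with a median gap of 0.19. The 43 gaps had a median of 0.62, from 0.18 in SRO9 to 1.15 in FRM2 and YCL049C. In 44 of 52 genes these 4 spores lay above the other 4 without overlap, against 7.08% of all genes. Without spores 1, 5 and 7, which had haploid-specific transcripts at diploid levels, spore 2 lay above spores 3, 4, 6 and 8 in 50 of 52 genes (all but VBA3 and CHA1), against 23.5% of all genes. Spore 2 alone thus shows the high level on the arm. No test was made, since the spores carry no labelled groups.

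**Figure D4:**
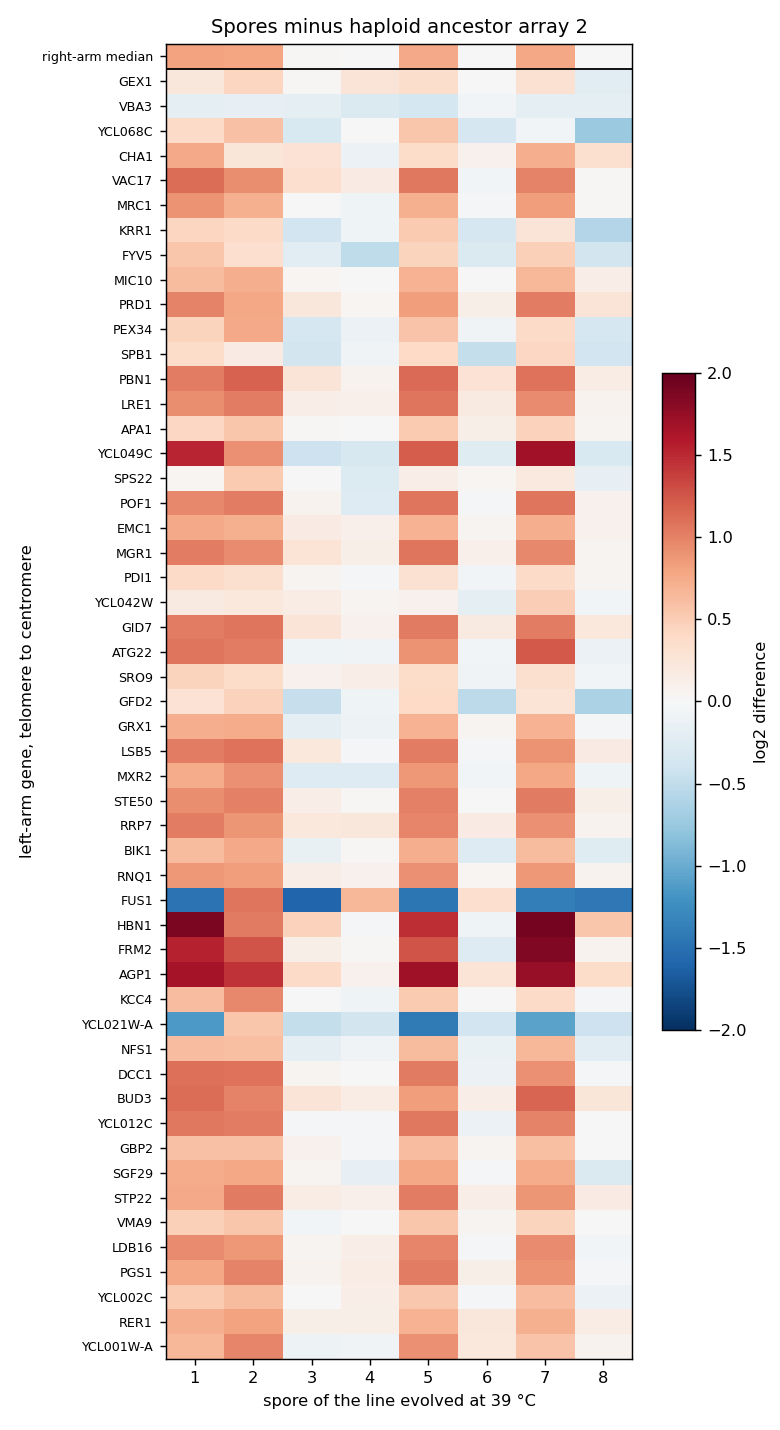
Log2 difference of each of 8 spores (columns) from haploid ancestor array 2 for 52 left-arm genes in order along the arm, below the right-arm median. Spores 1, 2, 5 and 7 are high across most rows, with FUS1 and YCL021W-A as exceptions, and AGP1, FRM2, HBN1 and YCL049C reach 1.68 to 1.92 in spore 7.

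A difference of 1 or more was measured in 14, 14, 16 and 11 of 52 genes in spores 1, 2, 5 and 7. The share of all genes at that threshold was not counted, and the genes below are a part of these. AGP1 differed from the haploid ancestor by 1.67, 1.44, 1.70 and 1.74 in spores 1, 2, 5 and 7, and by 0.38, 0.08, 0.27 and 0.36 in spores 3, 4, 6 and 8. HBN1 differed by 1.88, 1.04, 1.48 and 1.92 in the same high spores and by 0.46, −0.02, −0.08 and 0.55 in the others. FRM2 differed by 1.54, 1.26, 1.25 and 1.85, and by 0.11, 0.02, −0.26 and 0.07 in the others. AGP1 was thus high in the trisomic clone and in these 4 spores. The widest gap was 1.15 in FRM2 but 0.49 in HBN1, below the median of 0.62 over the 43 genes. In HBN1 it ran from 0.55 in the highest of the low spores to 1.04 in the lowest of the high ones. Such a gap is the least difference between a high and a low spore, so most pairs differed by more. YCL049C differed by 1.53, 0.91, 1.21 and 1.68 and by −0.41, −0.32, −0.24 and −0.30. In HBN1, FRM2 and YCL049C spore 2 was the lowest or next to lowest of the high 4.

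PDI1 again had a small step, differing by 0.38, 0.32, 0.31 and 0.39 in spores 1, 2, 5 and 7 against 0.06, −0.03, −0.05 and 0.06 in the other 4, a gap of 0.25. SRO9 and APA1 had gaps of 0.18 and 0.31. In each of these 3 genes spores 1, 2, 5 and 7 still lay above the other 4. RER1 and BIK1, which lay at the right-arm median in the clones, had gaps of 0.47 and 0.61, POF1 had 0.87, ATG22 had 0.95 and YCL012C had 1.00. Over the 43 genes, the difference between the trisomic and the monosomic clone and the spore gap had a Pearson correlation of 0.56 and a Spearman correlation of 0.63. The points share the probe sets and their brightness but no array.

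The 9 exceptions were FUS1, YCL021W-A, CHA1, SPB1, SPS22, YCL042W, YCL068C, GEX1 and VBA3. FUS1 differed from the haploid ancestor by −1.47, −1.59, −1.45, −1.38 and −1.43 in spores 1, 3, 5, 7 and 8 and by 1.07, 0.67 and 0.34 in spores 2, 4 and 6. YCL021W-A differed by −1.15, −1.42 and −1.07 in spores 1, 5 and 7, by 0.56 in spore 2 and by −0.48 to −0.37 in the remaining 4. For YCL021W-A, the 3 spores with haploid-specific transcripts at diploid levels were the lowest, and spore 2 was the highest. CHA1 differed by 0.76, 0.24, 0.37 and 0.72 in spores 1, 2, 5 and 7 and by 0.29, −0.12, 0.09 and 0.32 in the others, so its spores overlapped. SPB1, which methylates ribosomal RNA, did not overlap, at 0.16 to 0.42 in those 4 spores against −0.48 to −0.07 in the others, but its widest gap lay among the low spores.

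By role, the same gap was found in all 10 secretory genes, all 11 mitochondrial, peroxisomal and redox genes and all 5 cell-cycle genes, where the median gaps were 0.59, 0.62 and 0.61. It was found in 6 of 7 genes of RNA and ribosome biogenesis, 5 of 7 of signalling and mating, 1 of 4 of transport and amino acid use (AGP1) and 10 of 10 complex subunits. The widest gap of each gene, whichever spores lay above it, had a median of 0.38, 0.77, 0.30 and 0.61 over all measured genes of these 4 lists. Differences between lists were not tested.

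The left arm was higher in abrupt heat than in every group it was set against, by medians of 0.47 to 0.48. Abrupt-heat replicate 2 is the only abrupt-heat array behind the comparisons with the ancestor, H2 and gradual heat. Their medians are therefore not separate readings of abrupt heat. Replicates 1 and 3 share a normalization set with no other group and bear only on the error. The labels give no copies for the abrupt-heat populations, and in a population sample more cells with an extra copy and more transcript per cell cannot be told apart. Against the ancestor, abrupt-heat replicate 2 and ancestor array 1 carry the contrast, and limma called 6 of 51 genes higher, against 0.262% of all genes, and 0 lower. These were BUD3 at 0.79 ± 0.13 (SE), POF1 at 0.65 ± 0.10, DCC1 at 0.61 ± 0.10, YCL012C at 0.60 ± 0.10, the methionine sulfoxide reductase gene MXR2 at 0.57 ± 0.11 and RNQ1 at 0.49 ± 0.09. The median over the arm was 0.48 and 50 of 51 were positive. The trisomic clone was set against the same ancestor array, with its median of 0.49, so these are not separate readings of the ancestor. All 40 arrays in 1 fit called 0 of 52, the set as a random term 16 of 51 (1.07% of all genes) and array weights 41 (6.2% of all genes).

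Against growth at 30 °C, in a pair of arrays that no other comparison above uses (replicate 4 against replicate 1), 17 of 51 were called higher, against 1.18% of all genes, with the same median of 0.48. They were led by FRM2 at 1.17 ± 0.23 (adjusted p = 0.0280), YCL049C at 0.95 ± 0.17 (adjusted p = 0.0164), YCL012C at 0.79 ± 0.10 (adjusted p = 0.00308) and POF1 at 0.78 ± 0.10 (adjusted p = 0.00319). PDI1 rose by 0.36 ± 0.08 (adjusted p = 0.0469), the smallest called change. POF1 had levels of 10.11, 9.70, 10.18 and 9.59 in abrupt-heat replicates 1 to 4, against 8.81 and 10.51 in 30 °C replicates 1 and 2. These values come from different normalization sets and overlap, and the pair of 1 set, 9.59 against 8.81, carries the comparison. Across 51 genes, the difference between the trisomic and the monosomic clone and that between these heat and 30 °C arrays had a Pearson correlation of 0.40 and a Spearman correlation of 0.50. Without the set term 0 of 51 were called against 30 °C, with a median of 0.40, and with all 40 arrays in 1 fit 0 of 52, with a median of 0.47.

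**Figure D5:**
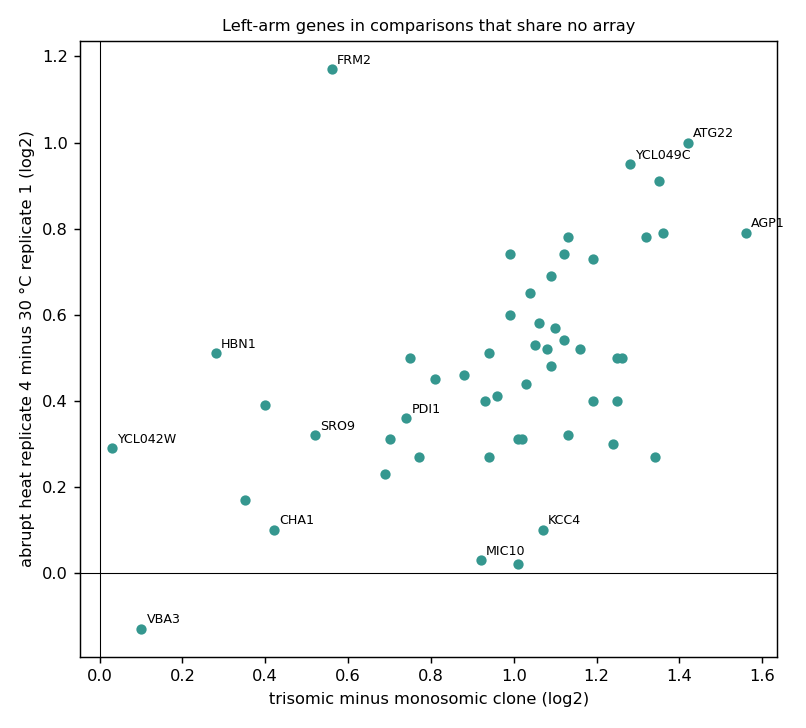
Log2 difference of abrupt-heat replicate 4 from 30 °C replicate 1 against that of the trisomic from the monosomic clone, 1 point per left-arm gene, in arrays that the axes do not share. Most genes lie between 0.7 and 1.4 on the clone axis and 0.2 and 0.8 on the heat axis, with FRM2 high on the heat axis at 1.17 and HBN1 and YCL042W low on the clone axis at 0.28 and 0.03.

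Against the H2 line after its return to 30 °C, 28 of 51 genes were called higher in abrupt heat, against 1.5% of all genes, with a median of 0.48. ATG22 led at 1.08 ± 0.20 (SE, 1 array against 4; adjusted p = 0.0178), then AGP1 at 0.96 ± 0.17 and YCL012C at 0.77 ± 0.08. AGP1 had 10.45 in abrupt-heat replicate 2, against 9.58, 9.55, 9.48 and 9.37 in the H2 arrays. All 40 arrays in 1 fit called 0 of 52. Against gradual heat 0 of 51 were called, where 0.0187% of all genes were called higher, although the median was 0.47 and 49 were positive. Of the 51 genes, 37 (72.5%) had an unadjusted p under 0.05 in abrupt against gradual heat, as did 3.67% of all genes. Those groups share no set and are joined through both ancestor arrays, which widens the error (median SE 0.17), and without the set term 47 of 51 were called with a median of 1.05, where 41.6% of all genes were called.

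In 3 other groups the left-arm median lay close to the ancestor's. Gradual heat had a median of −0.02 against the ancestor, with 0 of 51 called by limma (0.0562% of all genes called higher, 0.0187% lower). At an unadjusted p under 0.05 there were 2 (3.92%), against 1.39% of all genes. H2 at 30 °C had a median of 0.00 with 0 called (0.0375% of all genes called in either direction). At an unadjusted p under 0.05 there were again 2 (3.92%), against 5.55% of all genes. ATG22 had the lowest value in H2, −0.44 ± 0.20 (adjusted p = 0.886). After 750 generations at pH 8.6 the median against the haploid ancestor was 0.04, with 0 of 52 called by limma and 0.149% of all genes called higher. At an unadjusted p under 0.05 there were 0 of the 52, against 641 of all 5352 genes. The median SE of that contrast was 0.38, and the spread of the 8 spores of the 39 °C line, which lie in 2 bands, enters it. In a fit without those spores, with 3 residual degrees of freedom, the median SE was 0.07. That fit again called 0 of 52 genes, against 0.225% of all genes called higher and 0.113% lower. In it 7 of the 52 had an unadjusted p under 0.05, a threshold at which all genes were not counted for this fit.

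On minimal medium the arm did not move as a block. The descent of the trisomic clone after 1000 generations of heat had a median of 0.04 against the ancestor on that medium (2 arrays against 1), where the unevolved trisomic clone had 0.49 against the ancestor on the other medium. By limma, 10 of 51 genes were higher and 10 lower, against 18.7% and 15.1% of all genes, shares of 19.6% each. KCC4 had 8.20 and 8.33 in the descent, against 7.24 in the ancestor (change 1.03 ± 0.12, adjusted p = 3.4e-05), and YCL012C had 9.39 and 9.31, against 8.55 (0.80 ± 0.09). AGP1 had 12.05 and 11.93, against 13.04 (change −1.05 ± 0.19, adjusted p = 0.00109), and ATG22 had 9.23 and 8.74, against 9.83 (−0.85 ± 0.22). KCC4 and YCL012C thus rose while AGP1 and ATG22, the 2 steepest genes over the copy series, fell. Without the set term 0 of the 51 were called.

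In the H2 line on minimal medium the spread was wider, with 14 of 51 higher and 16 lower (27.5% and 31.4%, against 30.6% and 27.3% of all genes) and a median of 0.06. FRM2 had 5.95 and 6.04 in H2, against 8.64 in the ancestor (change −2.65 ± 0.20, adjusted p = 1.7e-07), while its neighbour HBN1 had 9.96 and 10.02, against 8.32 (1.66 ± 0.20, adjusted p = 1.2e-05). The related pair therefore moved in opposite directions. FUS1 changed by −1.96 ± 0.21 and YCL021W-A by −1.57 ± 0.18, and AGP1 by −1.23 ± 0.19 (adjusted p = 9.7e-05). YCL012C rose by 1.23 ± 0.09, KCC4 by 1.08 ± 0.12 and BUD3 by 1.06 ± 0.11. Shares of calls on the left arm lay near those of all genes in both groups, and 1 ancestor array stands behind both. Without the set term 6 of 51 were called in H2 (9.52% of all genes), and with all 40 arrays in 1 fit 14 of 52, with no share of all genes given.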

How the data were processed

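The deposited log2 levels were made by the authors with RMA, per the submitters' processing notes. The sources used here name neither its version nor a genome build. By gene number, 5498 of 10928 probe sets matched 5449 genes of the R64 gene table. Arrays sharing at least 0.1% of values to the last digit were joined in 9 sets, inferred from the values. Background was the 95th percentile of 1746 other-species probe sets per array. Where a gene exceeded background on 2 arrays of a fit, it entered limma 3.58.1 under R 4.3.3 (trended prior, Benjamini-Hochberg, set as a fixed term): 23 diploid arrays with 5335 genes and 9 residual degrees of freedom, and 17 haploid arrays with 5352 genes and 10. The number of arrays limits the precision. The slope is least-squares over 1, 2 and 3 copies. Fits were tested on simulated data.

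Named with values were genes called against the right arm, the 6 highest and 6 lowest slopes among genes above background with all copy numbers, the 4 closest to the right arm, and genes below background; others were named by role. The genes, role lists and tests were chosen with earlier results of these data known. Replicate numbers did not pair arrays: correlations of same-numbered deviations were 0.10, 0.17, 0.03 and 0.11 between abrupt and gradual heat, and −0.18, −0.24, −0.05 and −0.19 between abrupt heat and H2.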

Additional observations from a re-analysis of the deposited data

Results flagged for a closer look

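Among 80 groups of 4 to 8 arrays examined for the named genes, 15 had 1 array that stood apart from the rest by Dixon's criterion, where chance gives about 1 in 20. In gradual heat these arrays were replicate 1 for YCL012C (9.32, the others 9.29), YCL021W-A (5.80, the others 5.92), FRM2 (6.06, the others 6.04), RER1 (11.38, the others 11.37) and SPS22 (4.14, the others 4.29), replicate 2 for ATG22 (7.82, the others 7.95), replicate 3 for SRO9 (11.62, the others 11.65) and FUS1 (5.52, the others 5.80), and replicate 4 for POF1 (8.75, the others 8.66 to 8.67) and YCL049C (8.13, the others 8.10). After 750 generations at pH 8.6 they were replicate 2 for RER1 (11.42, the others 11.52 to 11.53), replicate 3 for YCL001W-A (4.21, the others 4.10 to 4.11) and YCL042W (4.66, the others 4.47 to 4.48), and replicate 4 for CHA1 (11.78, the others 11.83 to 11.84) and BIK1 (7.79, the others 7.85 to 7.86). In these groups 16.4% and 6% of all genes had 3 identical values among the 4 arrays, against 0.394% in the H2 arrays at 30 °C, and its part in these flags was not tested.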

How the results depend on the processing

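Counts below are of left-arm genes called, with the share of all genes called in parentheses for some settings. A count without that share cannot be read as particular to the left arm. Without the set term the counts were 0 for the slope (0.0375%), 0 for the slope against the right arm (0.0375%) and 0 for abrupt heat against 30 °C (0.0187%). That setting gave 47 for abrupt against gradual heat (41.6%), 0 for the trisomic descent (0.712%), 6 for H2 on minimal medium (9.52%) and 3 at pH 8.6 (28.8%). The set as a random term gave 2 against the right arm (1.41%) and 16 for abrupt heat against the ancestor (1.07%). Quantile normalization repeated without the set term gave 0 against the right arm (0.206%) and 11 for the trisomic descent (14.9%). For abrupt heat it gave 23 against the ancestor (1.35%) and 39 against gradual heat (13.4%). With no background filter 3 genes were called against the right arm, and 0 where all arrays had to exceed background. All 40 arrays in 1 fit, with 52 genes tested, gave 1 slope, 0 for abrupt heat against the ancestor, 30 °C and H2, 1 for the trisomic descent and 14 for H2 on minimal medium. Array weights gave 19 against the right arm, 7 higher and 12 lower (20.7%). For abrupt heat they gave 41 against the ancestor (6.2%), 42 against 30 °C (21.4%) and 38 against gradual heat (4.55%). They gave 1 for gradual heat against the ancestor (1.69%) and 1 at pH 8.6 (28.8%). Without the monosomic clone 9 slopes were called with a median of 0.83, and without the trisomic clone 16 with a median of 0.53, and either way 0 against the right arm. The slope of YCL042W turned to −0.46 without the monosomic clone. Against a slope of 1, 28 were called. The replicate block with no set term gave 44 for abrupt against gradual heat and 8 against H2, with no share of all genes given. The causes of these shifts were not tested.

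Arrays of the compared groups were left out 1 at a time, and arrays that bear only on the error were not. For the slope only the 2 ancestor arrays could be left out, with medians of 0.64 to 0.66. Ancestor array 2 lies in another normalization set, and without ancestor array 1 the slope rests on the clones alone. Abrupt heat gave 22 to 28 genes called against H2 and 0 to 0 against gradual heat, with abrupt-heat replicate 2 kept each time. Against the ancestor and 30 °C no array that carries the contrast could be left out, so no range is given. For the 2 evolved lines on minimal medium a left-out array leaves 1 in its group, so no counts are given. The other comparisons gave 0 to 0. In 9 cases the array left out carried the contrast and no value could be fitted. Of all recomputed summary results, 131 were labelled as unchanged and 36 as moved. A count was unchanged within 1.5 times the main count, and the median slope within 1 median SE. The 131 include the results with an array left out and counts of 0 both times. Of 3 alternatives chosen after seeing the data, slopes expected from a line of right-arm slopes on level left 1 gene called lower, the haploid fit without the spores left 0 called at pH 8.6, and leaving out spores 1, 5 and 7 left spore 2 high in 50 of 52 genes.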

Other observations

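The pH line's arrays after 150 generations and of its euploid and disomic spores form a set without an ancestor array and enter no comparison above. The disomic spore's label does not name the chromosome. Relative to genes off chromosome III, the left arm stood at −0.36 in the disomic spore and −0.18 in the euploid spore, and the right arm at 0.14 and 0.03. FUS1 had a level of 9.12 in the disomic spore and 9.47 in the euploid spore, and YCL049C had 10.66 and 9.74.

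Levels of AGP1, the amino acid permease, differed between replicates of the pH line after 750 generations, at 9.30, 10.06, 10.43 and 10.64 against 9.44 in haploid ancestor array 1. FUS1 in the same arrays had 7.90, 7.59, 7.17 and 6.79 against 8.24. In the limma fit of all haploid arrays, whose error includes the spread of the 8 spores of the 39 °C line, the adjusted p was 0.788 for AGP1 and 0.813 for FUS1. In the fit without those spores it was 0.548 for AGP1 (change 0.66 ± 0.55) and 0.373 for FUS1 (change −0.88 ± 0.46, SE, 4 arrays against 1). YCL049C had a change of 0.67 ± 0.06 there, with an adjusted p of 0.0535.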
